A study of Homo sapiens with 4 samples.

Results

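The miR-148 and miR-152 family was taken as both arms of 3 hairpins, miR-148a, miR-148b and miR-152. Its 6 mature miRNAs (hsa-miR-148a-3p, hsa-miR-148a-5p, hsa-miR-148b-3p, hsa-miR-148b-5p, hsa-miR-152-3p and hsa-miR-152-5p) were picked by name from the 2656 in the deposited count table. The family was chosen with earlier results of these data known, among them that it holds the most abundant miRNA of these libraries. The libraries came from HEK293T, a human embryonic kidney line transformed with adenoviral DNA that also expresses the SV40 large T antigen. All cells held a landing pad, an engineered genomic site that accepts a transgene. CAG cells (2 libraries) had a pad with the CAG promoter, which joins a cytomegalovirus enhancer to chicken beta-actin promoter sequence, and PGK cells (2 libraries) had a pad with the phosphoglycerate kinase promoter. Per the labels the lines were monoclonal, so a promoter and the clone that carries it cannot be told apart, and nothing in the labels says that replicates came from separate cultures. The p-values below reflect only how far these 4 libraries spread, which may be technical.

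A hairpin precursor is cut into a duplex, of which usually the more abundant arm (here 3p) is loaded into Argonaute and guides it to messenger RNAs that pair with its seed, the bases that follow the first base of the miRNA. The 3p arms of this family share 1 seed and are known to repress DNMT1, which maintains DNA methylation, and HLA-G, a non-classical class I molecule. The 5p arms are the passenger strands.

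Mature sequences from RefSeq (GRCh38.p14) were matched for 5 of the 6 members and are given to show what the 3p arms share and where they part, with the seed (bases 2 to 8) in capitals.
miR-148a-3p: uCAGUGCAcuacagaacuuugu
miR-148b-3p: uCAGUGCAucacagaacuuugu
miR-152-3p: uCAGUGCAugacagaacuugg
miR-148b-5p: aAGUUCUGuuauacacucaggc
miR-152-5p: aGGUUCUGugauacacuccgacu
The seed CAGUGCA was shared by all 3 of the 3p arms and by none of the other matched miRNAs (2367 of the 2656 had a RefSeq sequence). Counted from 1 at the 5′ end, miR-148b-3p differs from miR-148a-3p by C9U and U10C, and miR-152-3p differs from miR-148a-3p by C9U, U10G and U20G and is 1 base shorter (21 against 22 nucleotides). The 5p arms of miR-148b and miR-152 have different seeds, since A2G is among the 4 differences over the 22 bases compared. The nearest matched sequence outside the family was 6 edits from miR-148a-3p and 7 from miR-148b-3p and miR-152-3p, whereas miR-148a-3p and miR-148b-3p were 2 edits apart. The sources used here do not give how reads that fit both were counted.

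The hairpins lie on 3 chromosomes (GENCODE release 29, GRCh38; the count table has no coordinates, so positions were looked up by name). MIR148A is at chromosome 7, 25949919 to 25949986, minus strand, and overlaps no other annotated gene. MIR148B is at chromosome 12, 54337216 to 54337314, plus strand, in an intron of COPZ1, and also in an intron of the overlapping transcript AC078778.2. MIR152 is at chromosome 17, 48037161 to 48037247, minus strand, in an intron of COPZ2, 783 bases from the start of that gene. COPZ1 and COPZ2 encode the zeta subunits of the COPI vesicle coat. Each of the 3 chromosomes also holds an NFE2 family gene, with a gap of 202.254 kb between MIR148A and NFE2L3, 36.095 kb between MIR148B and NFE2, and 11.082 kb between MIR152 and NFE2L1.

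Totals were 13780279 and 2845945 counts in CAG replicates 1 and 2, and 7927615 and 7331437 in PGK replicates 1 and 2. CAG replicate 2 was the shallowest library, with 0.324 CPM per read (CPM, counts scaled to 1e6 per library with TMM factors) against 0.0777 CPM in CAG replicate 1. The 12 markers of liver, blood, neuron, muscle, smooth muscle, endocrine and endothelial cells summed to 1231 and 1273 CPM (of library totals) in CAG replicates 1 and 2, and 1877 and 1648 in PGK replicates 1 and 2. Of these 12 markers, 10 had at most 20 reads in any library, and the endothelial miR-126-3p and the endocrine miR-375-3p made up nearly all of the sum. Of the 12 markers 4 were tested. miR-375-3p, miR-126-3p and the liver miR-122-5p had log2 fold changes, CAG minus PGK, of −0.53, −0.50 and −0.45 and were not called. The muscle miR-133a-3p was called lower (edgeR adjusted p = 0.017), as were 6.08% of all tested miRNAs. It had 4 and 0 reads in CAG replicates 1 and 2, and 20 and 14 reads in PGK replicates 1 and 2. It passed the low-count filter through its PGK libraries alone, so that its lower level in CAG was in part a condition of being tested, and the call was lost without PGK replicate 1 (edgeR adjusted p = 0.165) or PGK replicate 2 (edgeR adjusted p = 0.162). The part of the markers in the results below was not tested. Intervals on shares and ratios below are counting intervals, which treat each read as an independent draw and leave out the spread between replicates. Reads amplified by PCR without molecular identifiers are not independent molecules, so these intervals may be too narrow even for counting error.

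miR-148a-3p was the most abundant miRNA in every library. It had 3009511 and 539780 reads in CAG replicates 1 and 2, and 1581014 and 1367144 reads in PGK replicates 1 and 2. These were 21.8% and 19.0% of all counts in the CAG libraries, and 19.9% and 18.6% in the PGK libraries. The exact 95% interval in the shallowest library, CAG replicate 2, ran from 18.92% to 19.01%. CAG replicate 1 was the high library, and CAG replicate 2 lay between the PGK libraries, so the groups overlapped. Together the 6 members held 21.5 ± 1.95% of counts in CAG and 20.5 ± 0.718% in PGK cells (SD, n = 2 each). The difference of 0.953 percentage points had an exact two-sided permutation p of 0.667, and 2 libraries against 2 cannot give a p below 0.333.

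**Figure D1:**
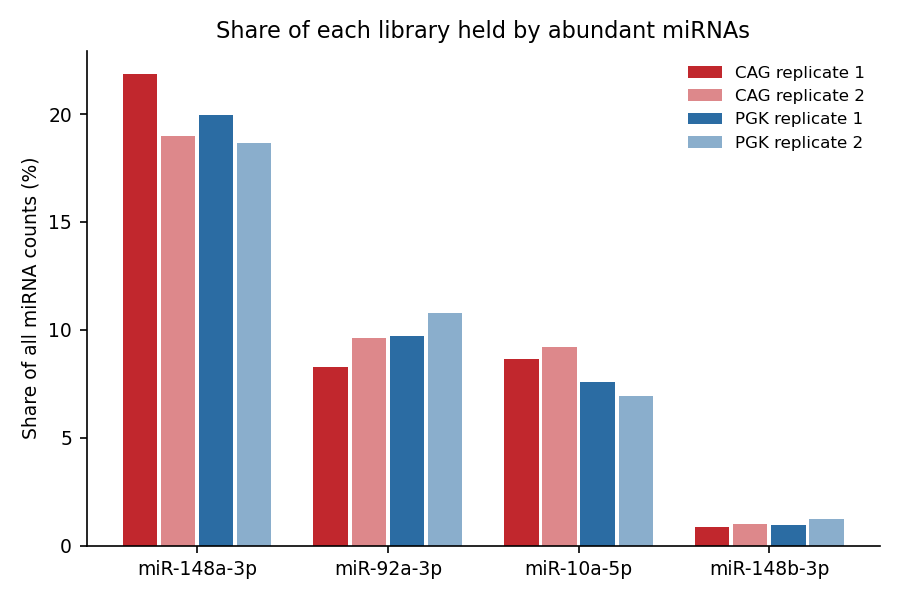
Share of all miRNA counts in percent (vertical axis, from 0) held by 4 abundant miRNAs; each bar is 1 library, CAG in red and PGK in blue. miR-148a-3p stands at 18.6% to 21.8% in all 4 libraries, above miR-92a-3p, miR-10a-5p and miR-148b-3p in each of them.

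The next miRNAs in abundance were miR-92a-3p, of the miR-17 to miR-92 cluster and its paralogue, and miR-10a-5p, from the HOXB cluster. miR-148a-3p had 2.64 and 1.97 reads per read of miR-92a-3p in CAG replicates 1 and 2, and 2.06 and 1.73 in PGK replicates 1 and 2. These ratios overlapped between the groups. It had 2.53 and 2.06 reads per read of miR-10a-5p in the CAG libraries, against 2.63 and 2.68 in the PGK libraries, a lower ratio in both CAG libraries (exact permutation p = 0.333). Adapter ligation differs between miRNA sequences, so such ratios are less certain as amounts than as comparisons between libraries.

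The other guide strands were far scarcer. miR-148b-3p stood at 9351 and 9092 CPM in CAG replicates 1 and 2, and at 9392 and 12619 CPM in PGK replicates 1 and 2. On this TMM-normalised scale both CAG libraries were below both PGK libraries. PGK replicate 1 was close to CAG replicate 1, however, and PGK replicate 2 was the high library. In share of all counts the groups overlapped. The shares were 0.874% and 0.986% in CAG replicates 1 and 2, and 0.947% and 1.23% in PGK replicates 1 and 2. miR-148b-3p ranked between 19 and 24 among all miRNAs. miR-152-3p stood at 89.9 and 83.6 CPM in CAG replicates 1 and 2, and at 125 and 129 CPM in PGK replicates 1 and 2. The groups did not overlap, and the gap between them was wider than the spread within either. Its rank was 221 and 231 in the CAG libraries, and 199 and 198 in the PGK libraries.

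The passenger strand of miR-148a was more abundant than the guide strand of miR-152 in every library. miR-148a-5p had 1224 and 1036 CPM in CAG replicates 1 and 2, and 1042 and 1008 CPM in PGK replicates 1 and 2, with overlapping groups. miR-148b-5p had 101 and 74.2 CPM in CAG replicates 1 and 2, and 102 and 97.7 CPM in PGK replicates 1 and 2, where CAG replicate 2 was the low library and the groups overlapped. In share of all counts neither of these 5p arms overlapped between the groups, with a narrow gap for miR-148b-5p. How many of all tested miRNAs were apart on this scale was not counted. On the TMM-normalised scale 57.2% of tested miRNAs did not overlap. miR-148a-5p held 0.114% and 0.112% in CAG replicates 1 and 2, and 0.105% and 0.0986% in PGK replicates 1 and 2. miR-148b-5p held 0.00940% and 0.00805% in CAG replicates 1 and 2, and 0.0103% and 0.00956% in PGK replicates 1 and 2. miR-152-5p was near the limit of detection, with 22 and 8 reads in CAG replicates 1 and 2, and 4 and 6 reads in PGK replicates 1 and 2. On the TMM-normalised scale these were 1.71 and 2.59 CPM in the CAG libraries, and 0.501 and 0.837 CPM in the PGK libraries. The scaled levels did not overlap. From the highest level to the lowest the order was miR-148a-3p, miR-148b-3p, miR-148a-5p, then miR-152-3p and miR-148b-5p, then miR-152-5p. The levels of miR-152-3p and miR-148b-5p overlapped in CAG cells, whereas in PGK cells both libraries had more miR-152-3p. The other neighbours in the order did not overlap in any library.

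**Figure D2:**
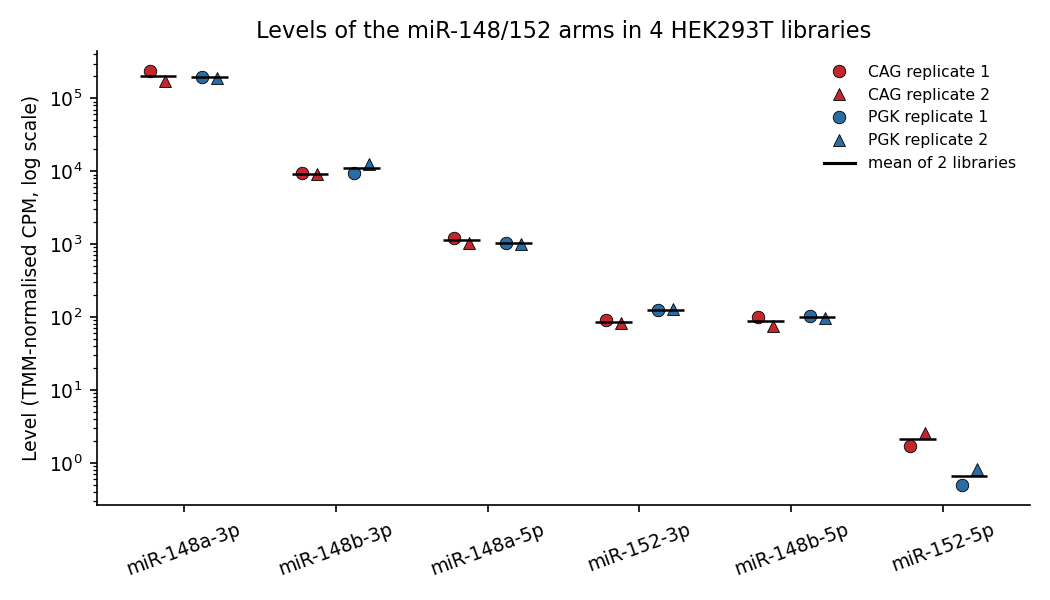
Level of the 6 arms in TMM-normalised CPM (vertical axis, log scale), with CAG libraries left of PGK libraries; points are libraries and lines are means of 2. The arms run from about 199283 CPM for miR-148a-3p to 1.41 CPM for miR-152-5p on average, and miR-152-3p is lower and miR-152-5p higher in both CAG libraries.

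The 3p arm outnumbered the 5p arm in all 3 hairpins. For miR-148a there were 191 and 169 reads of 3p per read of 5p in CAG replicates 1 and 2, and 190 and 189 in PGK replicates 1 and 2. CAG replicate 2 was the low library, and the other 3 lay close together. For miR-148b the ratio was 92.9 and 122 in CAG replicates 1 and 2, and 92.2 and 129 in PGK replicates 1 and 2, so the groups overlapped and the replicates of each differed more than the group means. For miR-152 it was 52.6 and 32.3 in CAG replicates 1 and 2, against 249 and 154 in PGK replicates 1 and 2. Both CAG libraries were below both PGK libraries.

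The passenger strand made up 1.86% (exact 95% interval 1.17% to 2.81%) and 3.01% (1.31% to 5.84%) of miR-152 hairpin reads in CAG replicates 1 and 2. The shares in PGK replicates 1 and 2 were 0.400% (0.109% to 1.02%) and 0.644% (0.237% to 1.40%). On the log2 scale the mean arm ratio was lower by 2.25 in CAG cells (difference −2.25; exact permutation p = 0.333, the smallest possible here). With reads summed by group the ratio was 47.2 in CAG and 192 in PGK cells, and their quotient was 0.246 (exact 95% counting interval 0.107 to 0.519). These values rest on 30 reads of miR-152-5p in CAG and 10 in PGK cells, and the interval on the summed reads leaves out the spread between replicates. The differences for miR-148a and miR-148b were −0.08 and −0.03 on the same scale (exact permutation p of 1 for each). With each library left out in turn both changed sign, that of miR-148a between −0.17 without CAG replicate 1 and 0.011 without CAG replicate 2, and that of miR-148b between −0.28 without PGK replicate 1 and 0.21 without PGK replicate 2.

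Among 174 hairpins with both arms tested and a read of each arm in every library, 48.3% had more 3p than 5p reads on average. The dominance of 1 arm over the other, as a mean log2 ratio without sign, was larger than that of miR-148a in 20 hairpins, of miR-148b in 29 and of miR-152 in 32. The arm ratios of CAG and PGK cells did not overlap in 32.2% of these hairpins, and were lower in both CAG libraries in 12.6%, so a lower ratio in 1 of 3 hairpins of the family is not set apart by its occurrence. The size of the miR-152 shift was not ranked among them, since miR-152-5p passed the low-count filter through its CAG libraries alone and a lower 3p to 5p ratio in CAG cells was in part a condition of being counted here.

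**Figure D3:**
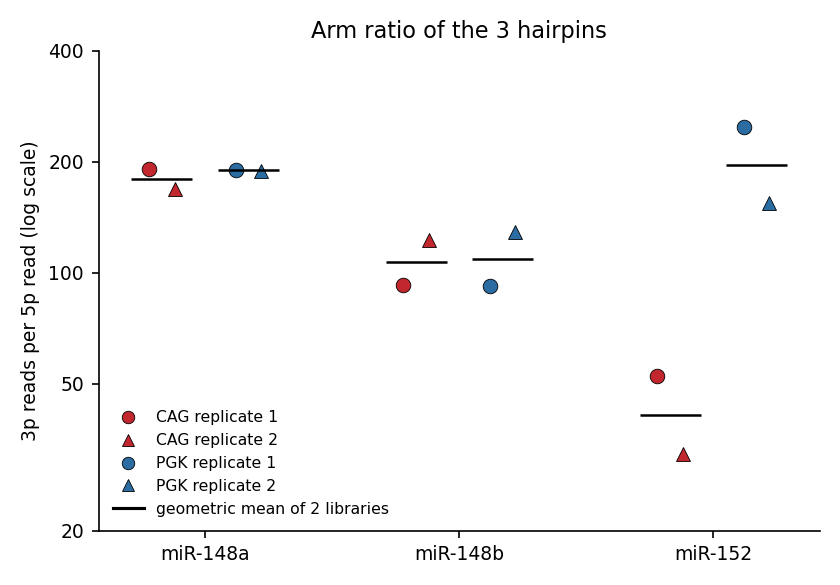
Reads of the 3p arm per read of the 5p arm (vertical axis, log scale) in each library, with CAG left of PGK; lines are geometric means of 2 libraries. miR-152 stands at 52.6 and 32.3 in CAG cells against 249 and 154 in PGK cells, while the groups overlap for miR-148a and miR-148b.

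Within the pool of 3p reads that carry the family seed, miR-148a-3p took 96.1% and 95.02% in CAG replicates 1 and 2, and 95.4% and 93.7% in PGK replicates 1 and 2. miR-148b-3p took 3.85% and 4.94% in CAG replicates 1 and 2, and 4.53% and 6.205% in PGK replicates 1 and 2. miR-152-3p took 0.0370% and 0.0454% in CAG replicates 1 and 2, and 0.0600% and 0.0635% in PGK replicates 1 and 2. Of these 3 shares, that of miR-152-3p alone separated the groups. The 5p pool was also led by miR-148a, with 92.3% and 93.1% in CAG replicates 1 and 2, and 91.06% and 91.09% in PGK replicates 1 and 2. That share was higher in both CAG libraries. miR-148b-5p took a lower share in both, 7.59% and 6.67% in CAG replicates 1 and 2, and 8.90% and 8.83% in PGK replicates 1 and 2. The share of miR-152-5p was higher in both CAG libraries, on few reads. Shares of 1 pool are tied to each other, and these differences were not tested.

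Ratios of the guide strands within a library are free of scaling. There were 25.0 and 19.2 reads of miR-148a-3p per read of miR-148b-3p in CAG replicates 1 and 2, and 21.1 and 15.1 in PGK replicates 1 and 2, with overlapping groups. There were 2599 and 2092 reads of miR-148a-3p per read of miR-152-3p in CAG replicates 1 and 2, and 1589 and 1476 in PGK replicates 1 and 2. Set the other way round, the log2 ratio of miR-152-3p to miR-148a-3p was −11.19 in CAG and −10.58 in PGK cells, a difference of −0.61 (exact permutation p = 0.333). Against miR-148b-3p, miR-152-3p had 1 read per 104 and 109 reads in CAG replicates 1 and 2, and 1 per 75.4 and 97.7 in PGK replicates 1 and 2, a difference of −0.31 on the log2 scale (exact permutation p = 0.333). That difference was −0.50 without PGK replicate 2 and −0.12 without PGK replicate 1.

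None of the 6 members passed the test between CAG and PGK cells (edgeR quasi-likelihood test, Benjamini-Hochberg adjustment over 773 tested miRNAs, threshold 0.05), where 14.2% of tested miRNAs were called, 8.15% as higher and 6.08% as lower. DESeq2 and limma-voom called none of them either, although DESeq2 gave no adjusted p for miR-152-5p. There were 2 members, miR-152-3p and miR-152-5p, with an unadjusted edgeR p under 0.05, which 26.9% of tested miRNAs had. TMM-normalised levels did not overlap between the groups for 3 of 6 members, against 57.2% of tested miRNAs. Of the 3, miR-148b-3p and miR-152-3p were lower in CAG cells, as were 27.4% of tested miRNAs, and miR-152-5p was higher, as were 29.8%. In share of all counts miR-148b-3p overlapped, whereas miR-148a-5p and miR-148b-5p did not, so the members of this set depended on the scaling. The percentage of all tested miRNAs without overlap was not counted on that scale. All 6 passed the low-count filter, miR-152-5p through its CAG libraries alone, so that its higher level there was in part a condition of being tested. The median log2 fold change, CAG minus PGK, was −0.05 over the 6 members and −0.0042 over all tested miRNAs.

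The mean of miR-152-3p was 86.8 ± 4.46 CPM in CAG libraries and 127 ± 3.26 CPM in PGK libraries (SD, n = 2 each). Its log2 fold change was −0.54 (SE 0.19, 95% interval −0.95 to −0.13; edgeR adjusted p = 0.0793), and 35.1% of tested miRNAs had a larger one in either direction. miR-152-5p averaged 2.15 ± 0.625 CPM in CAG libraries and 0.669 ± 0.238 CPM in PGK libraries (SD, n = 2 each), a log2 fold change of 1.51 (SE 0.61, 95% interval 0.18 to 2.85; edgeR adjusted p = 0.129).

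The miR-148 arms differed less. miR-148b-3p averaged 9222 ± 183 CPM in CAG libraries and 11005 ± 2282 CPM in PGK libraries (SD, n = 2 each), with a log2 fold change of −0.26 (95% interval −0.64 to 0.13; edgeR adjusted p = 0.365). miR-148b-5p had a log2 fold change of −0.17 (95% interval −0.63 to 0.28), and miR-148a-5p one of 0.14 (−0.24 to 0.53), which was 0.021 without CAG replicate 1 and 0.26 without CAG replicate 2. For miR-148a-3p the 95% interval was −0.27 to 0.41, so a difference of that size is not excluded for the most abundant miRNA. Its CAG replicates, at 233713 and 174952 CPM, lay on either side of the PGK replicates, at 197838 and 190630 CPM. Leaving out CAG replicate 2 gave miR-148a-3p a log2 fold change of 0.27 (edgeR adjusted p = 0.0799), and leaving out CAG replicate 1 gave −0.14 (edgeR adjusted p = 0.50). That of miR-148b-3p was −0.04 without PGK replicate 2 and −0.47 without PGK replicate 1.

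**Figure D4:**
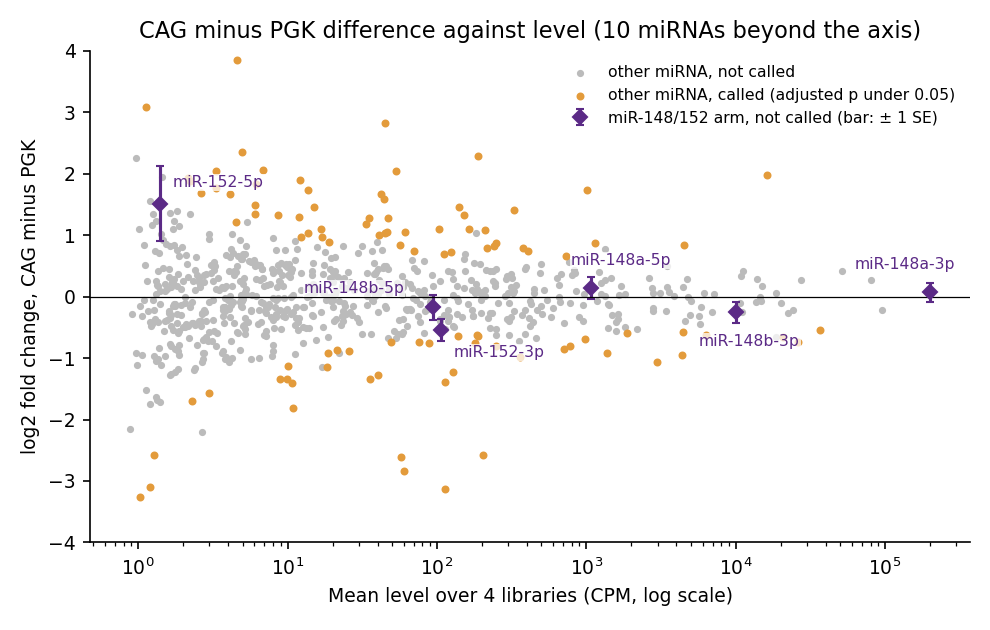
The log2 fold change, CAG minus PGK (vertical axis, shown to ± 4), against the mean CPM over 4 libraries (horizontal axis, log scale) for 773 tested miRNAs, with 10 beyond the axis. The 6 family arms (purple, ± 1 SE) are uncalled, from −0.54 for miR-152-3p to 1.51 for miR-152-5p.

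**Figure D5:**
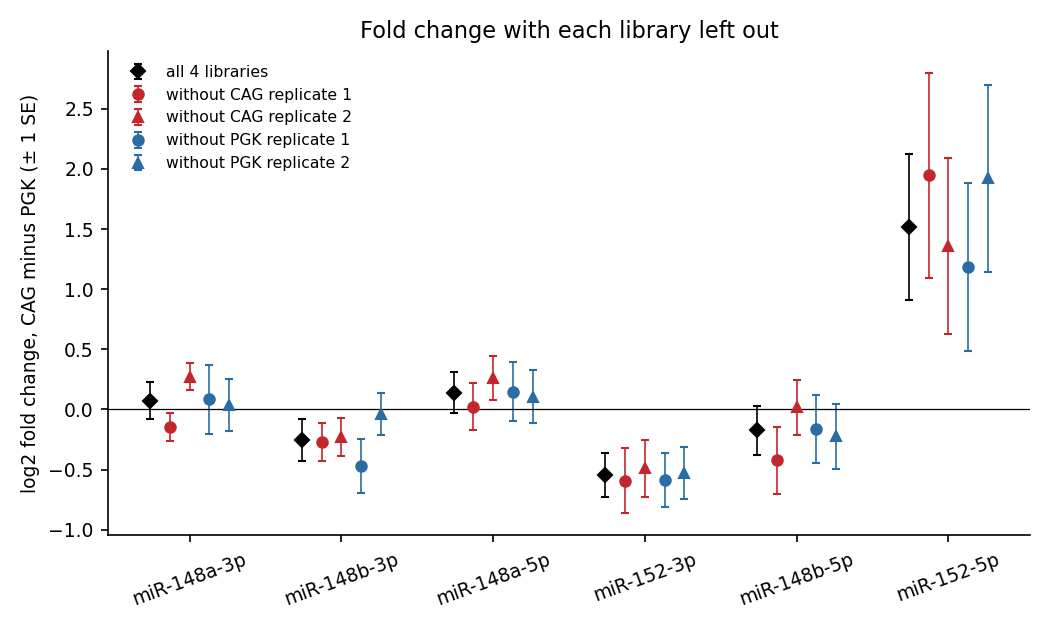
The log2 fold change, CAG minus PGK, of each arm (vertical axis, ± 1 SE) from all 4 libraries and with each library left out in turn. miR-152-3p stays between −0.59 and −0.49, while miR-148a-3p runs from −0.14 to 0.27.

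In the authors' table of seed families, CAGUGCA was the largest family in every library and its counts matched the sum of the 3 guide strands within 1 read, so it is not an independent measurement. It averaged 211305 ± 44321 CPM in CAG libraries and 207928 ± 2575 CPM in PGK libraries (SD, n = 2 each). Its log2 fold change was 0.02 (SE 0.17, 95% interval −0.36 to 0.41; edgeR adjusted p = 0.942), in a table where 10.4% of 642 tested families were called. Without CAG replicate 1 it was −0.22, and without CAG replicate 2 it was 0.21. The seed of miR-148b-5p, AGUUCUG, is shared with miR-6874-3p, which had 6 and 1 reads in CAG replicates 1 and 2 and was listed at 0 in both PGK libraries.

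The 3 miRNAs whose profile was most like that of miR-148a-3p were miR-32-5p, miR-548bc and miR-18a-5p. Likeness was the root mean square difference of log2 CPM, each miRNA centred on its mean over 4 libraries, among 221 other miRNAs of at least 100 CPM. It was 0.0433 for miR-32-5p, 0.0494 for miR-548bc and 0.0546 for miR-18a-5p, against a median of 0.262. miR-32-5p stood at 365 and 287 CPM in CAG replicates 1 and 2, and at 310 and 320 CPM in PGK replicates 1 and 2. On this TMM-normalised scale both it and miR-148a-3p were highest in CAG replicate 1 and lowest in CAG replicate 2, whereas in share of all counts miR-148a-3p was lowest in PGK replicate 2.

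miRNAs of the miR-130, miR-301 and miR-454 family carry bases 3 to 8 of the miR-148 seed shifted by 1 base, and they are printed here with their own seed in capitals for comparison with the 3p arms above.
miR-130b-3p: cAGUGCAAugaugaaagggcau
miR-301a-3p: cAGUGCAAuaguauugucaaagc
miR-301b-3p: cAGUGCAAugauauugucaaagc
miR-454-3p: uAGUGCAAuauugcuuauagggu
Of 10 matched miRNAs outside the family that held those bases 3 to 8 within their own seed, 6 had the shifted seed AGUGCAA. The 4 printed here were tested, and the other 6 of the 10 had no read in any library. Of the 4, 1 was called lower, as were 6.08% of all tested miRNAs. This was miR-130b-3p, at 100.1 and 116 CPM in CAG replicates 1 and 2, and 174 and 159 CPM in PGK replicates 1 and 2. Its log2 fold change was −0.63 (SE 0.19; edgeR adjusted p = 0.0477), close to the threshold. The call was lost in 7 of 14 alternatives, among them those without CAG replicate 1, PGK replicate 1 or PGK replicate 2, with an edgeR adjusted p up to 0.239. The fold changes of miR-454-3p, miR-301b-3p and miR-301a-3p, on the log2 scale −0.10, −0.49 and 0.42, did not pass the test. That of miR-301b-3p was −1.31 without CAG replicate 1 (edgeR adjusted p = 0.0646) and −0.17 without CAG replicate 2. The median of the 4 was −0.30.

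Other miRNAs that act on enzymes of the same class as DNMT1 were read from a list. Of 8 miRNAs known to repress DNA methyltransferase mRNAs, all were tested, 1 was called higher and none lower, where 8.15% of all tested miRNAs were called higher and 6.08% lower, so this count does not set the list apart. The median log2 fold change of the list was 0.01. miR-143-3p rose 2.50-fold (edgeR adjusted p = 0.0214) from a low level, at 14.4 and 9.72 CPM in CAG replicates 1 and 2, and 4.38 and 5.86 CPM in PGK replicates 1 and 2. That call was lost in 4 of 14 alternatives, those with the replicate block (adjusted p = 0.0541, edgeR) and without CAG replicate 1, PGK replicate 1 or PGK replicate 2 (up to 0.308). The most abundant, miR-101-3p, averaged 3849 ± 95.7 CPM in CAG libraries and 3827 ± 125 CPM in PGK libraries (SD, n = 2 each), a log2 fold change of 0.01. miR-185-5p had a log2 fold change of −0.52 (edgeR adjusted p = 0.0543), and the groups did not overlap, at 1759 and 1806 CPM in CAG replicates 1 and 2, and 2572 and 2539 CPM in PGK replicates 1 and 2. It was called lower in 4 of 14 alternatives, 1 of them without CAG replicate 2 (edgeR adjusted p = 0.0179). miR-126-3p was at −0.50 and miR-342-3p at 0.12, and neither was called, although miR-126-3p was without CAG replicate 1 (edgeR adjusted p = 0.025).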

How the data were processed

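The authors deposited whole-number read counts for 2656 mature miRNAs and 2094 seed families, 1 column per library, unpooled. Per the labels' protocols, Trizol RNA went into NEBNext Small RNA libraries, whose ligation and PCR steps favour some sequences. Neither labels nor headers name the aligner, counting rule or build. Libraries were grouped by title. The counts were fitted over the whole table with edgeR 4.0.16 (quasi-likelihood, robust, TMM factors 0.935 to 1.08, low-count filter with minimum count 10 and minimum total 15) in R 4.3.3, with the group alone in the model. Standard errors are the log2 fold change over the root of F, and fold changes are CAG minus PGK. Replicates differed beyond counting noise (chi-square per degree of freedom 125 in CAG, 66.1 in PGK). On simulated data the edgeR fit recovered 84.5% of 2-fold changes for miRNAs (728 tested) and 76.5% for seed families (611 tested). Changes were set in 200 entries above 10 CPM, and the same spread was used for all entries. The recovery therefore does not cover miR-152-5p, which lay below that level. It also does not cover changes smaller than 2-fold, such as that of miR-152-3p. Profiles used log2 CPM with a prior count of 2. Exact permutation tests used scipy 1.17.1. Alternatives covered scaling, filter, DESeq2 1.42.0, limma 3.58.1 (voom), the replicate block and each library left out. The members, lists and naming rule (all members, 3 most similar profiles, next 2 in abundance, up to 4 most abundant tested miRNAs per list) were chosen with earlier results of these data known. miR-143-3p lies outside the rule and was named after its values were seen, as were the neighbouring genes, miR-133a-3p and miR-6874-3p. A further list of miRNAs is not reported here.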

Additional observations from a re-analysis of the deposited data

How the results depend on the processing

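No member was called under any alternative run. Adjusted p for miR-152-3p ran from 0.0579 (filter of 10 CPM in 2 libraries, which did not test miR-152-5p) to 0.30 (without PGK replicate 2). With a library left out, signs changed for miR-148a-3p (−0.14 to 0.27), miR-148b-5p (−0.42 to 0.017) and the seed family (−0.22 to 0.21; −0.0094 with upper-quartile scaling); the cause was not tested. Over all miRNAs 63 were called higher and 47 lower, against 10 to 85 and 6 to 78 with a library left out, 40 and 23 with the replicate block, and 39 and 39 with 10 CPM in 2 libraries. In fits without a library, the remaining library of its group was given the spread of the other group. Replicate numbers mark no stated batch, and deviations of same-numbered libraries had a correlation across miRNAs of 0.0403; with the replicate block, miR-152-3p stood at −0.54 (adjusted p = 0.123). Removing miR-148a-3p before scaling gave no value for itself or the family. With a library left out, the share of the 6 members differed by −0.43 to 2.34 percentage points and the log2 arm ratio of miR-152 by −2.60 to −1.90. For the named miRNAs outside the family the alternatives were added after seeing the data. Their signs changed with a library left out for miR-32-5p (−0.13 to 0.22), miR-548bc (−0.16 to 0.37), miR-18a-5p (−0.12 to 0.27), miR-301a-3p (−0.18 to 0.64), miR-454-3p (−0.44 to 0.17), miR-101-3p (−0.034 to 0.039) and miR-342-3p (−0.31 to 0.67), and for miR-101-3p also with RLE scaling and DESeq2 (−0.013 each), the filter of 10 CPM (−0.0031) and upper-quartile scaling (−0.00024). The few reads of miR-152-5p, 30 in CAG and 10 in PGK cells, limit its precision.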
